A study of Mus musculus with 21 samples.

Results

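A pair of heart macrophage populations from inflamed mice were set against each other. CAWS R2 was labelled Ccr2-negative with high MHC class II, and CAWS R1 was labelled Ccr2-negative with low MHC class II. The 6 libraries, 3 of CAWS R2 and 3 of CAWS R1, were taken by their labels from the 21 libraries of the series. The mice were C57BL/6 and had been challenged with CAWS, the water-soluble complex of *Candida albicans*, which causes inflammation of the coronary arteries and serves as a mouse model of Kawasaki disease. Each CAWS library came from a pool of mice, 3 independent pools in all, and CAWS R2 and CAWS R1 libraries with the same replicate number came from the same pool. The same populations from naive C57BL/6 mice, naive R2 and naive R1 with 3 libraries each, are used at the end as a second comparison. The labels give no age, dose or time after the challenge, nor the number of mice in a pool.

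Macrophages of the heart are a mixture. Resident cells that lack Ccr2, the receptor that draws monocytes out of the blood, clear dying cells and debris, and many carry Lyve1, Timd4 and Folr2. Cells with high MHC class II, the molecules that show peptide to CD4 T cells, are better placed to present antigen, a task they share with conventional dendritic cells. A sort on a pair of surface markers can therefore bring several cell types together, and in bulk RNA fewer cells of a type cannot be told apart from less of a transcript in each cell.

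Sequencing depth was similar in both groups. Total counts were 15036719, 19341770 and 16763449 in CAWS R2 replicates 1, 2 and 3, against 18416028, 16484940 and 18970444 in CAWS R1 replicates 1, 2 and 3. CAWS R2 replicate 2 stood somewhat apart, with a chi-square per degree of freedom of 41.5 and 47.3 against the other CAWS R2 libraries, which differed from each other by 17.7. A gene ID without a symbol, 100861531, took 3.02% of the counts in CAWS R2 replicate 2, against 0.217% to 0.599% in the other 5 libraries. The chi-square included this gene ID and was not recomputed without it. It therefore does not show how far the library stood apart in other genes. Levels are given as CPM, counts of a gene scaled to a common depth with TMM, and differences as log2 fold changes of CAWS R2 over CAWS R1 with their standard errors. A gene passed when its Benjamini-Hochberg adjusted p from edgeR's quasi-likelihood test (two-sided) was under 0.05, and "higher", "rose", "lower" and "fell" describe CAWS R2 relative to CAWS R1.

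Of 13275 genes tested, 501 passed (3.77%), with 327 higher (2.46%) and 174 lower (1.31%) in CAWS R2. Of these, 193 were higher and 59 were lower by at least 2-fold. Counts of list members given below stand beside the shares of all genes tested, 2.46% higher and 1.31% lower. The CAWS R2 and CAWS R1 libraries did not overlap for 495 of the 501, while they did not overlap for 21.9% of all genes tested. The count depended on single libraries: it was 230 without CAWS R2 replicate 2, 242 without CAWS R1 replicate 1 and 281 without CAWS R1 replicate 3. The genes that rose furthest were those for MHC class II, markers of dendritic cells and a few chemokines, and those that fell furthest included nonclassical monocyte genes, resident macrophage markers and Saa3.

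The sort markers come first because they check the labels, and their differences are a description since the gates used them. Promoters of the class II genes are known to carry a compact control element that the coactivator Ciita acts on, and one part of it, the Y box, holds an inverted CCAAT. The letters CTGATTGG were searched on both strands of the RefSeq promoter windows of assembly GRCm38.p6, each 300 bases long with 250 before and 50 after a gene's start. They were in 4.10% of 32851 windows, and 4.70% of 27025 genes had a window that held them. Of the 11 class II genes, 8 had a window, and the letters were in those of H2-Aa, H2-Eb1, H2-Eb2 and H2-Oa and not in those of H2-DMa, H2-DMb1, H2-DMb2 and H2-Ob. Only exact matches were scored. The windows of H2-DMb1, H2-DMb2 and H2-Ob hold TGATTGG, the searched letters without the first, so a missing match does not show that a Y box is absent. How many other windows hold the shorter run was not counted. The 120 bases before the gene start are shown for some of the genes with a match, with the searched letters in capitals. These are an I-A chain gene and an I-E chain gene, both with abundant RNA, and H2-Oa, with the largest class II fold change. The sequences lie at chr17:34287824-34287943 on the minus strand, chr17:34305747-34305866 on the plus strand and chr17:34092259-34092378 on the plus strand, in the order printed, and read 5′ to 3′ toward the gene.
H2-Aa: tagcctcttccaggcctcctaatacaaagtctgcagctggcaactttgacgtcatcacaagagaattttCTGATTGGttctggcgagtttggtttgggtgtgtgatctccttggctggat
H2-Eb1: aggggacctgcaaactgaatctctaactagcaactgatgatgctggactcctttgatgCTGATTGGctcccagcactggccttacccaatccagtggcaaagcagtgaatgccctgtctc
H2-Oa: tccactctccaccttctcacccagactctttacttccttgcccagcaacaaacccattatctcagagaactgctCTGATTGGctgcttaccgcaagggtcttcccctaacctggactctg
The matched letters began 51 bases before the start of H2-Aa, 62 before that of H2-Eb1 and 46 before that of H2-Oa. A match describes letters in a window and says nothing of binding.

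All 11 class II genes were higher in CAWS R2, where the median log2 fold change of the list was 2.74 against -0.004 over all genes tested. H2-Aa, which encodes the alpha chain of the I-A molecule, had 13260, 12960 and 10220 CPM in CAWS R2 and 1891, 1455 and 1199 CPM in CAWS R1, a log2 fold change of 3.00 ± 0.40. H2-Eb1, the beta chain of I-E, had 11420, 10750 and 8247 CPM in CAWS R2 and 1494, 1138 and 852.3 CPM in CAWS R1. Every CAWS R2 library was above every CAWS R1 library for both genes, although CAWS R1 was far from free of class II RNA. Ciita, the master regulator of the class II genes, had 277, 318 and 301 CPM in CAWS R2 against 71.6, 76.6 and 61.1 CPM in CAWS R1. The genes for peptide loading moved as well: H2-DMa, a chain of the DM dimer that exchanges peptide in the endosome, was 3.16-fold higher, and H2-Oa, which encodes part of the DO dimer that restrains DM, was 14.4-fold higher. H2-Oa had 32.2, 37.1 and 12.2 CPM in CAWS R2 and 2.10, 3.13 and 0.558 CPM in CAWS R1, so the third library was the lowest in each group. The third library was also the lowest for 10 of the 11 class II genes in CAWS R2 and for 9 of the 11 in CAWS R1. All 11 passed in each fit that left out a library.

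**Figure D1:**
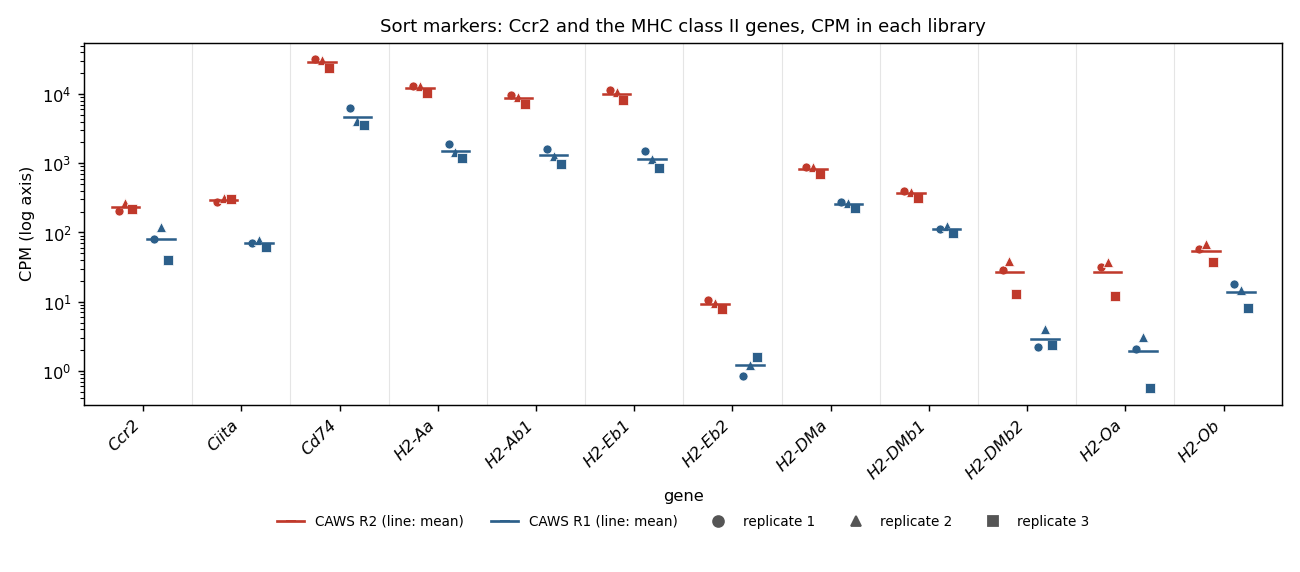
CPM of Ccr2 and the 11 MHC class II genes in each library on a log axis, with CAWS R2 in red to the left of CAWS R1 in blue, one symbol per replicate number and a line at the mean. The CAWS R2 points lie above the CAWS R1 points for every gene shown, from Cd74 at 24110 to 31860 CPM in CAWS R2 down to H2-Eb2 at 7.96 to 10.5 CPM in CAWS R2.

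Ccr2 RNA was detected in both populations labelled negative. It stood at 206, 266 and 221 CPM in CAWS R2 and at 79.3, 122 and 40.6 CPM in CAWS R1, a log2 fold change of 1.53 ± 0.28 (edgeR adjusted p = 0.0041). With the 6 libraries of CAWS R2 and CAWS R1 fitted alone, the edgeR adjusted p was 0.181. In the Ccr2-positive population of the same hearts, CAWS R3, the mean was 3665 ± 343 CPM (SD, n = 3), so the CAWS R2 mean was 6.31% and the CAWS R1 mean 2.20% of it.

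Markers of conventional dendritic cells were the largest group outside the sort markers. Of 22 tested, 16 were higher in CAWS R2 and the other 6 did not pass, with a median log2 fold change of 1.93. Flt3, the receptor for the growth factor on which dendritic cells depend, had 39.5, 49.6 and 17.4 CPM in CAWS R2 and 5.36, 7.02 and 1.57 CPM in CAWS R1, 7.77-fold higher (log2 2.96 ± 0.44, edgeR adjusted p = 0.000618). Cd209a, a lectin carried by monocyte-related dendritic cells, had 144, 206 and 69.9 CPM in CAWS R2 and 19.7, 27.5 and 9.90 CPM in CAWS R1 (log2 2.89 ± 0.59, edgeR adjusted p = 0.0112). The groups did not overlap for either gene, and in both populations replicate 2 was the highest and replicate 3 the lowest. Cd209a lost its call without CAWS R1 replicate 1, CAWS R1 replicate 3 or CAWS R2 replicate 2 (edgeR adjusted p of 0.051 to 0.0594), and with the 6 libraries fitted alone the edgeR adjusted p was 0.0913 for Flt3 and 0.0928 for Cd209a. Kit, the stem cell factor receptor, had 6.94, 8.94 and 6.88 CPM in CAWS R2 and 0.683, 1.16 and 0.711 CPM in CAWS R1 (log2 3.17 ± 0.45, edgeR adjusted p = 0.000192). Genes of the type 1 subset moved too. Clec9a, a receptor for the actin of dead cells, had 5.42, 9.21 and 7.12 CPM in CAWS R2 and 1.05, 1.28 and 0.863 CPM in CAWS R1, and Xcr1, a chemokine receptor of that subset, was at 1.80 to 4.93 CPM in CAWS R2 and 0.457 to 0.580 CPM in CAWS R1. The remaining genes that rose were Itgae, Ccr7, Jaml, Btla, Dpp4, Cd24a, Itgax, Mycl, Cadm1, Batf3 and Naaa, of which Ccr7 and Itgae were below 3 CPM in every library.

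Some general dendritic cell genes did not pass. Zbtb46, a transcription factor of the lineage, averaged a log2 fold change of 0.41 ± 0.29, and Irf4 and Irf8, regulators of its subsets, 0.09 ± 0.12 and 0.26 ± 0.13. Among the 16 genes that rose, replicate 2 was the highest library for 13 in CAWS R2 and for 13 in CAWS R1. Replicate 3 was the lowest for 12 in CAWS R2 and for 9 in CAWS R1. Same-numbered libraries thus held a similar order for most of these genes, which were picked by their calls in the same libraries. What lay behind that order was not tested. The count of 16 was 9 without CAWS R2 replicate 2 and 10 without CAWS R1 replicate 1. Several of these genes were also expressed in CAWS R3, at a mean of 29.1 CPM for Flt3, 194 CPM for Cd209a and 53.9 CPM for Dpp4. The CAWS R2 mean was 122% of the CAWS R3 mean for Flt3, 72.2% for Cd209a and 63.5% for Dpp4, while for Ccr2 it was 6.31%. For Kit the CAWS R2 mean was 508% of the CAWS R3 mean. In splenic monocytes of naive mice the mean was 65.5 CPM for Flt3, 65.7 CPM for Dpp4, 47.9 CPM for Btla and 32.9 CPM for Jaml. The CAWS R2 mean was 54.2%, 52.2%, 17.6% and 51.1% of these. For Cd209a it was 123%, for Clec9a 404% and for Kit 1940% of the monocyte mean. CAWS R2 was also above the monocytes for Itgax, Cadm1, Mycl, Xcr1 and Ccr7. Which cells these transcripts came from was not tested.

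Chemokine genes rose selectively. Of 22 ligands tested, Ccl22, Ccl17, Cxcl9, Ccl5, Cxcl10, Cxcl14 and Cxcl16 were higher in CAWS R2 and the other 15 did not pass. Ccl22, a ligand of Ccr4 that draws regulatory and Th2 cells, had 23.4, 19.7 and 18.2 CPM in CAWS R2 and 0.578, 0.464 and 1.22 CPM in CAWS R1. That was 26.3-fold higher (log2 4.72 ± 0.27, edgeR adjusted p = 1.72e-11), and the 3 CAWS R2 libraries lay close together. Ccl17, the other Ccr4 ligand, had 5.88, 5.37 and 2.69 CPM in CAWS R2 and 0.0526, 0.0580 and 0.457 CPM in CAWS R1. The CAWS R2 mean was 382% of the CAWS R3 mean for Ccl22 and 311% for Ccl17. For Cxcl9 it was 104%. Means in CAWS R2 and CAWS R3 were 31.1 and 38.9 CPM for Cxcl10, 8.16 and 6.97 CPM for Ccl5, and 639 and 554 CPM for Cxcl16.

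The Cxcr3 ligands Cxcl9 and Cxcl10, which draw activated T cells and are induced by interferon gamma, were both higher. Cxcl9 had 50.3, 62.6 and 75.8 CPM in CAWS R2 and 13.1, 10.6 and 9.90 CPM in CAWS R1, 5.61-fold higher (log2 2.49 ± 0.19, edgeR adjusted p = 5.91e-08). Cxcl10 had 24.1, 32.1 and 37.0 CPM in CAWS R2 and 11.5, 11.2 and 15.9 CPM in CAWS R1 (log2 1.27 ± 0.29, edgeR adjusted p = 0.0144). In CAWS R2 replicate 3 was the highest library for both, the reverse of its place among the dendritic cell genes. Monocyte-drawing ligands did not pass: Ccl2 had a log2 fold change of 0.01 ± 0.23, Ccl7 -0.31 ± 0.22 and Ccl12 -0.05 ± 0.18. Cxcl13, which draws B cells, was at 19.3 to 26.1 CPM in CAWS R2 and 36.0 to 72.4 CPM in CAWS R1 (log2 -1.35 ± 0.42, edgeR adjusted p = 0.0835). Ligand calls numbered 4 without CAWS R1 replicate 1 and 4 without CAWS R2 replicate 3, and Cxcl10 lost its call without any of CAWS R1 replicates 1 and 2 and CAWS R2 replicates 2 and 3 (edgeR adjusted p of 0.0593 to 0.086). Among 13 chemokine receptors, Ccr7, Xcr1, Ccr2 and Cx3cr1 were higher. That count was 1 without CAWS R2 replicate 2, 2 without CAWS R1 replicate 1 or CAWS R2 replicate 3, and 2 with a minimum count of 50 or in the older edgeR fit. Ccr7 lost its call without 5 of the 6 libraries (edgeR adjusted p of 0.0585 to 0.147) and Xcr1 without CAWS R2 replicate 2 (0.0844).

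**Figure D2:**
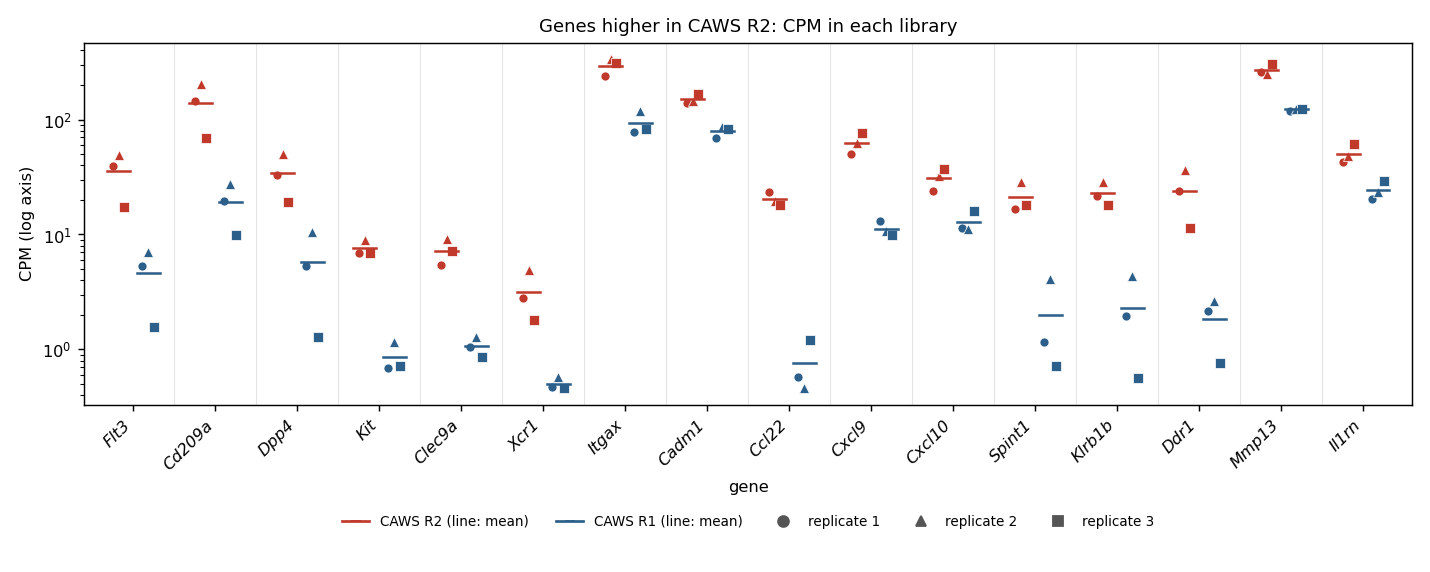
CPM of 16 genes that were higher in CAWS R2, in each library on a log axis, with CAWS R2 in red to the left of CAWS R1 in blue, symbols for the replicate numbers and a line at the mean. Replicate 3 (squares) lies lowest in both populations for Flt3, Cd209a, Dpp4 and Ddr1, and highest in CAWS R2 for Cxcl9, Cxcl10, Mmp13 and Il1rn.

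Interferon-gamma-induced genes gave some calls, while 2.46% of all genes tested were higher, and type I interferon-stimulated genes gave none in the main fit. Of 26 interferon-gamma-induced genes tested, 6 were higher: Cxcl9, Cxcl10, Ccl5, Serpina3g and the guanylate-binding proteins Gbp4 and Gbp8. That count was 1 without CAWS R1 replicate 1 and 1 without CAWS R2 replicate 3, and Serpina3g also missed the threshold in DESeq2 (adjusted p = 0.267). Of 27 type I interferon-stimulated genes, edgeR passed 0, with 1 at an unadjusted p under 0.05, and DESeq2 and limma voom passed 0 each. With the pool as a block Ifi44 passed (edgeR adjusted p = 0.0398), at 3.04 to 3.85 CPM in CAWS R2 and 0.683 to 1.62 CPM in CAWS R1. For MHC class I presentation 1 of 18 was higher, the peptide transporter Tap1 at 267, 343 and 301 CPM in CAWS R2 and 219, 245 and 219 CPM in CAWS R1 (log2 0.42 ± 0.12, edgeR adjusted p = 0.0481). It missed the threshold without 5 of the 6 libraries. Reads of class I genes may be shared among near-identical copies.

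Among 26 pattern recognition genes, Clec4b1, Clec7a and Tlr1 were higher. Clec7a encodes Dectin-1, the receptor for fungal beta-glucan, and had 844, 726 and 698 CPM in CAWS R2 and 503, 466 and 399 CPM in CAWS R1 (log2 0.73 ± 0.12, edgeR adjusted p = 0.000892). Tlr1, which pairs with Tlr2, had 109, 104 and 101 CPM in CAWS R2 and 65.9, 65.6 and 59.9 CPM in CAWS R1. The groups were well separated for both. Of 26 cytokine and NF-kB genes, Tnip3, Il1rn, Icam1 and Traf1 were higher. Il1rn, the natural antagonist of the interleukin 1 receptor, had 42.5, 48.3 and 61.2 CPM in CAWS R2 and 20.2, 23.7 and 29.0 CPM in CAWS R1 (log2 1.06 ± 0.16, edgeR adjusted p = 0.000337). Il1b itself stood at 80.3, 71.1 and 87.6 CPM in CAWS R2 and 22.6, 31.7 and 23.6 CPM in CAWS R1, with no overlap, but did not pass (log2 1.62 ± 0.45, edgeR adjusted p = 0.0623). With the pool as a block its edgeR adjusted p was 0.0278. Il12a and Il23a had no count in any of the 6 libraries, and Tnf was at 7.66 to 9.05 CPM in CAWS R2 and 4.37 to 6.94 CPM in CAWS R1.

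A minority of the molecules that accompany antigen presentation passed, while 2.46% of all genes tested were higher. Of 16 costimulatory and checkpoint ligands, Slamf7 and Icosl were higher. Slamf7, a self-binding receptor of leukocytes, had 190, 222 and 200 CPM in CAWS R2 and 78.8, 87.6 and 76.5 CPM in CAWS R1 (log2 1.33 ± 0.17, edgeR adjusted p = 5.74e-05). Icosl, the ligand of the T cell receptor ICOS, lost its call without any one of the 6 libraries (edgeR adjusted p of 0.058 to 0.151). Cd80, Cd86 and Cd40, the classical costimulators, had log2 fold changes of -0.14 ± 0.16, 0.12 ± 0.11 and 0.23 ± 0.18 and did not pass.

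Surface receptors and adhesion genes followed the dendritic cell genes in part, since the lists share members. Of 24 integrin and adhesion genes, 9 were higher (Itgae, Jaml, Itgax, Cd34, Itgb7, Vcam1, Cadm1, Icam1 and Itga9) and Itgb3 was lower, a call lost without CAWS R1 replicate 1, CAWS R1 replicate 2 or CAWS R2 replicate 2. Itgax, the CD11c chain, had 240, 336 and 311 CPM in CAWS R2 and 78.2, 119 and 83.7 CPM in CAWS R1 (log2 1.66 ± 0.22, edgeR adjusted p = 0.000148). The higher count of 9 became 5 without CAWS R1 replicate 1, CAWS R1 replicate 3 or CAWS R2 replicate 2. Among 19 growth factor receptors, Kit, Flt3 and Il7r were higher, while Csf1r, the receptor that keeps macrophages alive, did not pass. Ddr1, a collagen receptor, had 23.8, 36.2 and 11.4 CPM in CAWS R2 and 2.16, 2.61 and 0.761 CPM in CAWS R1, 13.2-fold higher (log2 3.72 ± 0.52, edgeR adjusted p = 0.000218). Spint1, a serine protease inhibitor, was 10.9-fold higher and the lectin-like receptor Klrb1b 10.3-fold higher. Of 35 transcription factors, Runx3, Nr1h3 and Batf3 were higher and Tfec and Tcf4 lower, and each lost its call when single libraries were left out, Runx3 and Tfec for any of the 6, Nr1h3 and Batf3 for 5 of them and Tcf4 for 4. Spi1, the PU.1 gene, had a log2 fold change of 0.04 ± 0.08.

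Matrix proteases rose while several matrix and growth factor genes fell. Of 31 genes tested, Mmp25, Mmp13, Mmp12, Mmp14 and Pdgfb were higher and Pdgfc, Ecm1 and Timp2 lower. Mmp13, a collagenase, had 261, 251 and 306 CPM in CAWS R2 and 120, 123 and 125 CPM in CAWS R1, 2.22-fold higher (log2 1.15 ± 0.11, edgeR adjusted p = 1.8e-06). Mmp12, the macrophage elastase, had 285, 195 and 255 CPM in CAWS R2 and 124, 124 and 101 CPM in CAWS R1 (log2 1.07 ± 0.23, edgeR adjusted p = 0.0104), and missed the threshold without CAWS R2 replicate 1 or CAWS R1 replicate 3 (0.0529 and 0.0695). The groups did not overlap for either protease. Pdgfc, a growth factor for fibroblasts, had 50.9, 40.9 and 35.7 CPM in CAWS R2 and 101, 75.5 and 94.7 CPM in CAWS R1 (log2 -1.09 ± 0.20, edgeR adjusted p = 0.00222). Timp2, an inhibitor of the matrix proteases, was at 1149 to 1311 CPM in CAWS R2 and 1539 to 1671 CPM in CAWS R1. The higher count was 2 to 4 when a library was left out.

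A minority of the resident macrophage markers passed, most of those lower in CAWS R2. Of 25 tested, Vsig4, Lyve1, Ltc4s, F13a1 and Cd163 were lower, Clec4g was higher and the other 19 did not pass, with a median log2 fold change of -0.70. Vsig4, a complement receptor of tissue macrophages, had 77.2, 65.1 and 84.4 CPM in CAWS R2 and 208, 153 and 221 CPM in CAWS R1 (log2 -1.36 ± 0.21, edgeR adjusted p = 0.000353). Lyve1, a hyaluronan receptor, had 192, 254 and 170 CPM in CAWS R2 and 589, 462 and 528 CPM in CAWS R1 (log2 -1.36 ± 0.31, edgeR adjusted p = 0.0178). Cd163, which takes up haemoglobin bound to haptoglobin, had 1241, 1081 and 1104 CPM in CAWS R2 and 2446, 1694 and 2083 CPM in CAWS R1. No CAWS R2 library reached a CAWS R1 library for any of these. Vsig4 kept its call in each fit that left out a library, while Lyve1 lost it without 4 of the 6 (CAWS R2 replicates 1 and 3 and CAWS R1 replicates 1 and 3) and Cd163 without CAWS R2 replicate 2 or CAWS R1 replicate 1. Timd4, a receptor for dying cells, was at 68.0, 78.8 and 57.9 CPM in CAWS R2 and 131, 95.9 and 110 CPM in CAWS R1 but did not pass (edgeR adjusted p = 0.16), nor did the folate receptor Folr2 (log2 -0.78 ± 0.31, edgeR adjusted p = 0.238). The lower count was 2 without CAWS R1 replicate 1, 8 with the pool as a block and 20 with the 6 libraries of CAWS R2 and CAWS R1 fitted alone.

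Of 14 genes of nonclassical monocytes tested, Ace, Cd300e, Pglyrp1 and Eno3 were lower, Cx3cr1 was higher and the other 9 did not pass. The lower calls rested on single libraries. Ace, the angiotensin-converting enzyme, had 13.6, 28.3 and 15.9 CPM in CAWS R2 and 63.1, 265 and 50.5 CPM in CAWS R1, 6.46-fold lower (log2 -2.69 ± 0.60, edgeR adjusted p = 0.0188). Cd300e, an activating receptor of monocytes, had 5.62, 9.21 and 5.93 CPM in CAWS R2 and 16.7, 68.7 and 15.4 CPM in CAWS R1 (log2 -2.25 ± 0.49, edgeR adjusted p = 0.0134). CAWS R1 replicate 2 was the highest of the 3 CAWS R1 libraries for all 4 genes and replicate 3 the lowest, and the groups still did not overlap. The same library was highest for Ceacam1, with 14.1, 15.2 and 13.7 CPM in CAWS R2 and 24.5, 64.9 and 26.9 CPM in CAWS R1 (log2 -1.43, edgeR adjusted p = 0.032), and for Nr4a1, which did not pass. Ceacam1 lost its call without CAWS R1 replicate 2 (log2 -0.85, edgeR adjusted p = 0.141), without any one CAWS R2 library (0.101 to 0.116), with no filter on low counts (0.0729) and with the 6 libraries fitted alone (0.215). Without CAWS R1 replicate 2 the count of 4 was 1, and without CAWS R2 replicate 1 or replicate 3 it was 0. Splenic Ccr2-positive monocytes of naive mice expressed Ace at a mean of 1107 CPM and Ceacam1 at 260.1 CPM, so the CAWS R1 mean was 11.4% of the monocyte mean for Ace and 14.9% for Ceacam1. For Cd300e it was 831%. Fitted alone, the 6 libraries gave an edgeR adjusted p of 0.244 for Ace and 0.303 for Cd300e. The part of monocytes in these differences was not tested.

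**Figure D3:**
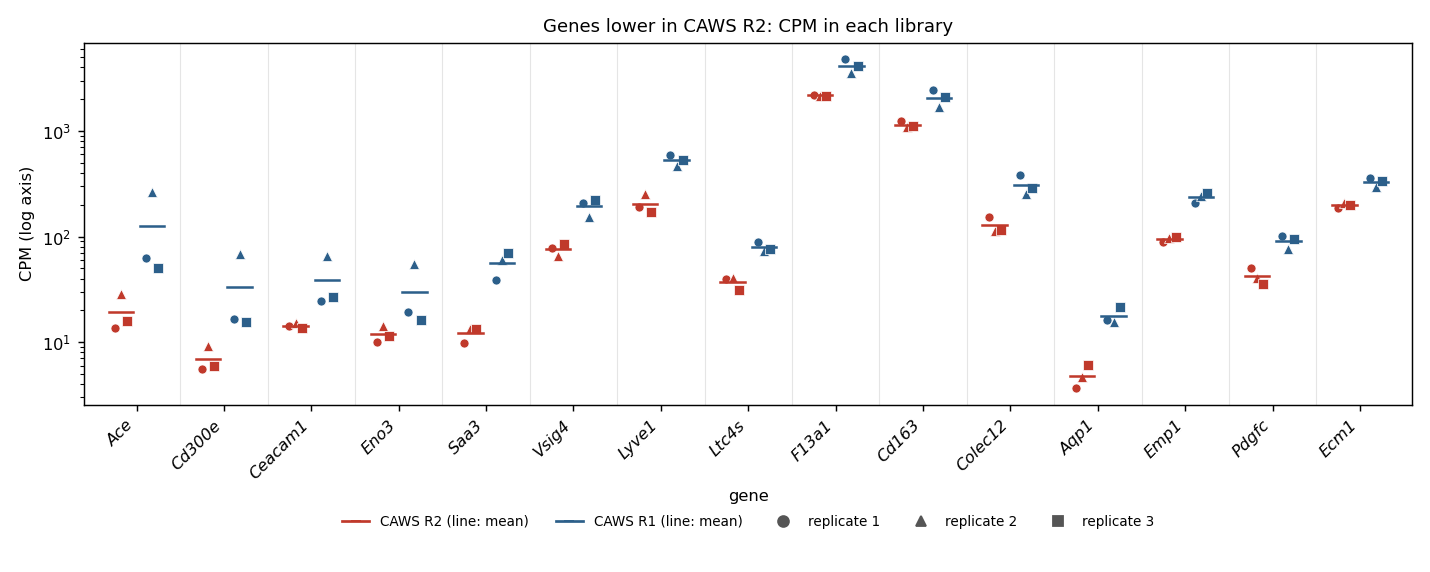
CPM of 15 genes that were lower in CAWS R2, in each library on a log axis, with CAWS R2 in red to the left of CAWS R1 in blue, symbols for the replicate numbers and a line at the mean. CAWS R1 replicate 2 (blue triangles) stands far above the other CAWS R1 libraries for Ace, Cd300e, Ceacam1 and Eno3 (265, 68.7, 64.9 and 54.7 CPM), and below them for Vsig4, Lyve1 and Cd163.

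Other genes that fell covered acute phase, scavenging and lysosomal functions. Saa3, an acute phase apolipoprotein made by inflamed tissue, had 9.72, 13.4 and 13.3 CPM in CAWS R2 and 38.8, 60.3 and 69.8 CPM in CAWS R1, 4.60-fold lower (log2 -2.20 ± 0.39, edgeR adjusted p = 0.00109). It missed the threshold in the older edgeR fit (0.0845) and in DESeq2 (0.369). Aqp1, a water channel, had 3.64, 4.66 and 6.05 CPM in CAWS R2 and 16.2, 15.5 and 21.3 CPM in CAWS R1 (log2 -1.88 ± 0.22, edgeR adjusted p = 1.72e-05). Emp1, a membrane protein, had 89.0, 97.2 and 99.7 CPM in CAWS R2 and 210, 240 and 260 CPM in CAWS R1. The groups did not overlap for either gene. Of 22 receptors and bridging proteins for dying cells, Pros1 and Colec12 were lower and Axl was higher. Colec12 lost its call without 4 of the 6 libraries (edgeR adjusted p of 0.0558 to 0.129), and 4 genes of the list were lower with the pool as a block. Axl, a receptor tyrosine kinase that binds dying cells through Gas6, had 1102, 1345 and 1373 CPM in CAWS R2 and 622, 707 and 659 CPM in CAWS R1 (log2 0.94 ± 0.14, edgeR adjusted p = 0.000192), while its relative Mertk had a log2 fold change of -0.24 ± 0.12 and did not pass. Gas6 was at 697 to 841 CPM in CAWS R2 and 1084 to 1415 CPM in CAWS R1 (edgeR adjusted p = 0.0558, and 0.0331 with the pool as a block).

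Of 24 lysosomal genes, Mpeg1 and Ifi30 were higher and Ctsd, Ctsl and Lamp1 lower. Mpeg1, the pore protein perforin-2, had 3581, 3916 and 4020 CPM in CAWS R2 and 2563, 2927 and 2484 CPM in CAWS R1 (log2 0.53 ± 0.11, edgeR adjusted p = 0.00467). Ctsd, the protease cathepsin D, had 1179, 1347 and 1189 CPM in CAWS R2 and 1905, 1847 and 1794 CPM in CAWS R1 (log2 -0.58 ± 0.14, edgeR adjusted p = 0.0153). The 3 lower calls became 0 without CAWS R1 replicate 1 or CAWS R2 replicate 3, and the 2 higher calls 1 without CAWS R2 replicate 2 or any one CAWS R1 library. Of 19 iron genes, Cd163, Ncoa4 and the haem-degrading Hmox1 were lower, and at most 1 remained past the test when any library was left out. Of 25 lipid-associated macrophage genes, the cathepsins Ctsd and Ctsl were lower, a count that was 0 without CAWS R1 replicate 1 or CAWS R2 replicate 3, 1 without CAWS R2 replicate 1 or 2, 4 with the pool as a block, 7 with limma voom and 8 with the 6 libraries fitted alone. Trem2 and Spp1 had log2 fold changes of -0.24 ± 0.15 and -0.32 ± 0.28. Among 18 complement genes, those past the test included Itgax, which was higher, and Vsig4, which was lower. Of 20 alternative activation genes, Ccl22, Ccl17 and Cd209a were higher, and Mrc1 and Retnla, the usual markers of that state, did not pass (log2 -0.45 ± 0.23 and 0.07 ± 0.34).

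Genes that mark macrophages in general differed by less than 1.5-fold. This held for all 15 tested, with log2 fold changes of -0.327 to 0.477, and Cx3cr1 alone passed. Adgre1, the F4/80 gene, had 2402, 2637 and 2820 CPM in CAWS R2 and 2500, 2601 and 2632 CPM in CAWS R1 (log2 0.02 ± 0.09, edgeR adjusted p = 0.963). Csf1r had 6282, 6727 and 6737 CPM in CAWS R2 and 7722, 6581 and 6951 CPM in CAWS R1 (log2 -0.11 ± 0.09, edgeR adjusted p = 0.708). The ranges overlapped for both, as they did for the complement genes C1qa, C1qb and C1qc and for Lyz2. Cx3cr1, the fractalkine receptor, had 1256, 1558 and 1612 CPM in CAWS R2 and 964.5, 1129 and 1088 CPM in CAWS R1 (log2 0.48 ± 0.12, edgeR adjusted p = 0.0277), and lost its call without 4 of the 6 libraries. Summed over the 15 genes, the level was 43250 to 43680 CPM in CAWS R2 and 43990 to 45330 CPM in CAWS R1.

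Proliferation and metabolism gave few calls, while 2.46% of all genes tested were higher. Of 30 cell cycle genes Mcm2, part of the replicative helicase, was higher (log2 0.62 ± 0.17, edgeR adjusted p = 0.0352), a call lost without any one of the 6 libraries. Its partners Mcm3 and Mcm5 missed the threshold (edgeR adjusted p of 0.0568 and 0.0938) and passed with the pool as a block (edgeR adjusted p of 0.0263 and 0.0261). Ccnb2, a mitotic cyclin, ran in the opposite direction, at 19.2, 21.03 and 25.6 CPM in CAWS R2 and 35.3, 46.6 and 49.6 CPM in CAWS R1 (edgeR adjusted p = 0.115, and 0.0432 with the block). Of 24 glycolytic genes the glucose transporter Slc2a1 was higher, a call lost without CAWS R1 replicate 1 or 3 (edgeR adjusted p of 0.0581 and 0.0762). Immediate early genes and Fc receptors had 0 genes past edgeR's test, with 2 of 21 and 2 of 9 at an unadjusted p under 0.05, while limma voom passed 1 in each and DESeq2 1 and 0. With the pool as a block edgeR passed 1 in each, Klf2 lower (adjusted p = 0.0207) and Fcgr4 higher (adjusted p = 0.0186), and with the 6 libraries fitted alone 2 in each. Classical monocyte markers gave Mcemp1, Itgb7 and Ccr2 higher and Gda lower of 19. The higher count was 1 without CAWS R1 replicate 1, CAWS R1 replicate 3 or CAWS R2 replicate 2, 2 without CAWS R2 replicate 1 or with the 6 libraries fitted alone, 6 without CAWS R1 replicate 2 and 5 with the pool as a block, with limma voom or with DESeq2. Gda lost its call without CAWS R1 replicate 1, CAWS R1 replicate 2 or CAWS R2 replicate 3 (edgeR adjusted p of 0.0528 to 0.0561).

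Markers of other cell types were mostly low. The 6 B cell genes tested, Cd79b, Cd22, Cd79a and Ms4a1 among them, were all higher in CAWS R2, and 1 to 3 passed when a library was left out. Their list, the untested members included, summed to 57.4 to 78.8 CPM in CAWS R2 and 25.6 to 29.8 CPM in CAWS R1, most of it from Cd79b and Cd22. Cd79b, a chain of the B cell receptor, had 37.4, 30.9 and 26.7 CPM in CAWS R2 and 17.9, 16.9 and 13.2 CPM in CAWS R1, while Pax5, which defines the lineage, had no count in any of the 6 libraries. B cells also express class II genes and Spib, which had 8.79, 13.9 and 4.55 CPM in CAWS R2 and 0.158, 0.754 and 0.102 CPM in CAWS R1, and the part of B cells in those differences was not tested. Spib also stood on the list of plasmacytoid dendritic cell markers. Of 8 tested there, Spib was higher, Tcf4 was lower and the other 6 did not pass. The part of those cells was not tested either. Siglecf, an eosinophil and alveolar macrophage lectin, was at 4.83 to 9.21 CPM in CAWS R2 and 1.10 to 2.21 CPM in CAWS R1, whereas the eosinophil genes Epx and Prg2 had no count in any of the 6 libraries.

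Of 7 cytotoxic cell genes tested, 2 were higher and 1 was lower. Of 7 mast cell, basophil and eosinophil genes tested, 1 was higher and 1 was lower. Gzma, granzyme A, had 0.0661, 0.433 and 0 CPM in CAWS R2 and 2.63, 8.24 and 1.32 CPM in CAWS R1 (log2 -4.41 ± 0.83, edgeR adjusted p = 0.00191), and Cma1, a mast cell protease, was at or below 0.163 CPM in CAWS R2 and at 0.863 to 2.79 CPM in CAWS R1. Lck, a T cell kinase, was lower as well, at 0.120 to 0.331 CPM in CAWS R2 and 0.736 to 2.38 CPM in CAWS R1, with Cd3e at 0 in CAWS R2. Of 5 T cell genes tested it alone passed, with 2 positive and 3 negative estimates. The whole T cell list, untested members included, was higher in CAWS R2, summing to 52.5 to 58.1 CPM against 35.5 to 43.6 CPM in CAWS R1. Lck lost its call without CAWS R1 replicate 2, CAWS R2 replicate 2 or CAWS R2 replicate 3 (edgeR adjusted p of 0.0991 to 0.174), in the older edgeR fit (0.118), with the 6 libraries fitted alone (0.0521) and in DESeq2 (0.0791). CAWS R1 replicate 2 held the highest value of Gzma, Cma1 and Lck. Klrd1, a receptor of natural killer cells, went the other way, at 24.5, 28.8 and 11.3 CPM in CAWS R2 and 3.26, 3.31 and 0.761 CPM in CAWS R1. The chemokine gene Ccl5, also on the cytotoxic list, was higher too. That list, untested members included, summed to 25.0 to 41.9 CPM in CAWS R2 and 8.53 to 32.8 CPM in CAWS R1. Cardiomyocyte and fibroblast lists had 0 genes past edgeR's test, DESeq2 or limma voom, with 5 of 21 and 0 of 17 at an unadjusted p under 0.05. The cardiomyocyte list summed to 406 to 455 CPM in CAWS R2 and 348 to 423 CPM in CAWS R1.

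**Figure D4:**
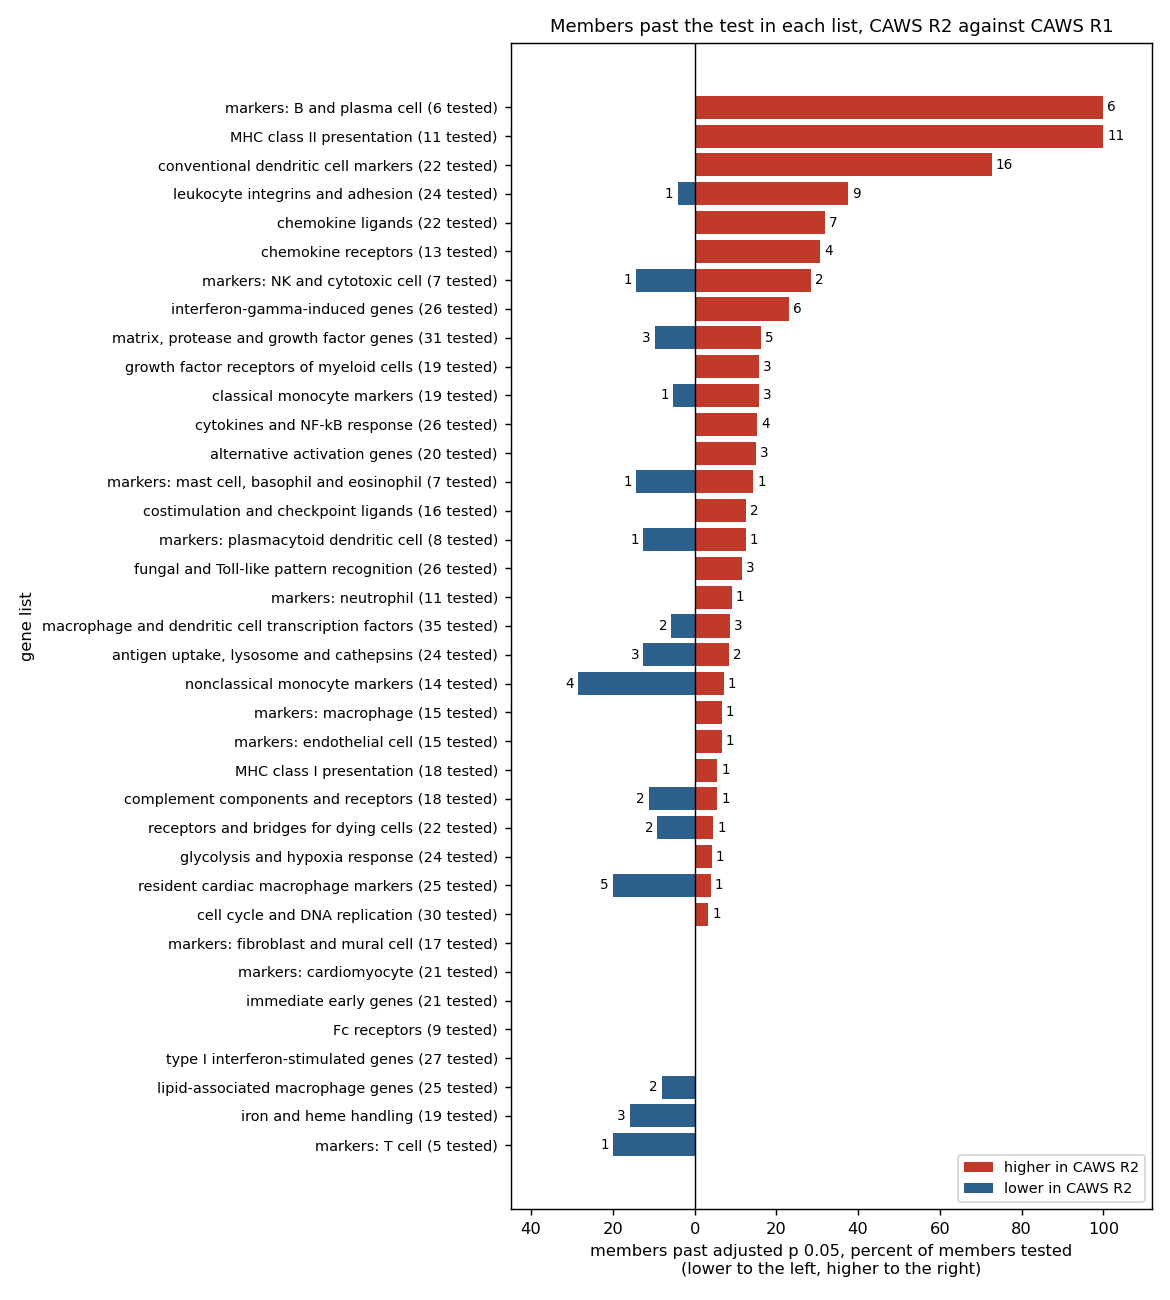
Share of the tested members of each gene list that passed, in percent on the horizontal axis, with members higher in CAWS R2 as red bars to the right, members lower in CAWS R2 as blue bars to the left and the number of genes at each bar's end. The MHC class II and B cell lists reach 11 of 11 and 6 of 6 higher and the dendritic cell list 16 of 22, while the largest lower counts are 5 resident macrophage markers and 4 nonclassical monocyte markers. Over all genes tested, 2.46% were higher and 1.31% lower.

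The same populations of naive mice show which of these differences were present without the challenge. In naive mice 946 of 13275 genes passed between R2 and R1 (7.13%), 515 higher (3.88%) and 431 lower (3.25%). Of the 501 genes of the CAWS comparison, 305 also passed in naive mice in the same direction, 162 higher and 143 lower. That is 60.9% of the CAWS genes and 32.2% of the naive genes, and the naive estimate had the same sign for 471 of the 501. All 11 class II genes were higher in naive R2 too, with a median log2 fold change of 3.65. Of the resident markers, 14 of 25 were lower in naive R2, among them Timd4 and Folr2. Of the dendritic cell markers, 7 of 22 were higher in naive R2.

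Levels of dendritic cell genes are given side by side for the treatments, and only the R2 to R1 differences were tested between treatments. Flt3 was at 2.50 to 3.57 CPM in naive R2 and 0.467 to 0.693 CPM in naive R1, and Cd209a at 5.78 to 7.71 CPM in naive R2 and 1.44 to 2.20 CPM in naive R1, below the CAWS libraries of the same population. The naive R2 to R1 difference was a log2 of 2.31 ± 0.89 for Flt3 and 1.92 ± 0.99 for Cd209a. Neither passed (edgeR adjusted p of 0.152 and 0.32). In CAWS mice it was larger by 0.65 ± 1.18 and 0.98 ± 1.24, and the difference between treatments did not pass for either. Over the 22 dendritic cell markers the median log2 fold change was 1.93 in CAWS mice and 1.525 in naive mice. The difference between treatments passed for 1 of the 22, Cadm1, smaller in CAWS mice. Ccl22 was at 0.837 to 1.26 CPM in naive R2 and 0.372 to 0.467 CPM in naive R1. Its R2 to R1 difference was larger in CAWS mice by a log2 of 3.43 ± 0.73, which did not pass (edgeR adjusted p = 0.067). Cxcl9 was higher in R2 in both treatments, by a log2 of 2.49 ± 0.19 in CAWS mice and 1.63 in naive mice (edgeR adjusted p = 0.72 for the difference).

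The difference between the 2 treatments passed for 7 genes (0.0527% of those tested), 5 of them with a higher value in CAWS mice (0.0377%) and 2 with a lower one (0.0151%), with 702 at an unadjusted p under 0.05. With the pool as a block 15 genes passed. Of the 7, the annexin Anxa1, an anti-inflammatory protein that binds phospholipid, had the smallest p. It had 142, 148 and 158 CPM in CAWS R2 and 128, 161 and 165 CPM in CAWS R1, against 37.8, 39.5 and 40.5 CPM in naive R2 and 87.8, 95.9 and 87.4 CPM in naive R1. Naive R2 was thus the lowest group and the 2 CAWS groups overlapped. Anxa2, Hpse and Cd300lg had the same order in naive mice, lower in naive R2, with no difference past the test in CAWS mice. Hpse, the enzyme that cuts heparan sulfate, had 11.3, 16.3 and 14.4 CPM in CAWS R2 and 18.7, 21.6 and 13.4 CPM in CAWS R1, against 2.39, 3.64 and 2.60 CPM in naive R2 and 9.60, 10.1 and 14.2 CPM in naive R1. Cadm1, an adhesion molecule of type 1 dendritic cells, and Mpeg1 were higher in R2 in both treatments, by less in CAWS mice. Cadm1 had 141, 145 and 167 CPM in CAWS R2 and 69.6, 86.8 and 83.3 CPM in CAWS R1, against 209, 226.2 and 217 CPM in naive R2 and 54.5, 52.3 and 53.1 CPM in naive R1. The seventh gene, Ccne1 (cyclin E1), lies outside the rule for named genes and was chosen after its values were seen. It had 2.78, 2.66 and 2.51 CPM in CAWS R2 and 0.631, 1.22 and 0.863 CPM in CAWS R1, against 0.0903, 0.114 and 0.264 CPM in naive R2 and 0.693, 1.30 and 0.734 CPM in naive R1. It was the one gene of the 501 that passed in naive mice in the opposite direction. The count of 7 became 1 when CAWS R2 replicate 2 was left out, 4 for CAWS R1 replicate 1 and 12 for CAWS R1 replicate 2. It became 2 when naive R2 replicate 1 or naive R1 replicate 3 was left out and 3 for naive R2 replicate 2.

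**Figure D5:**
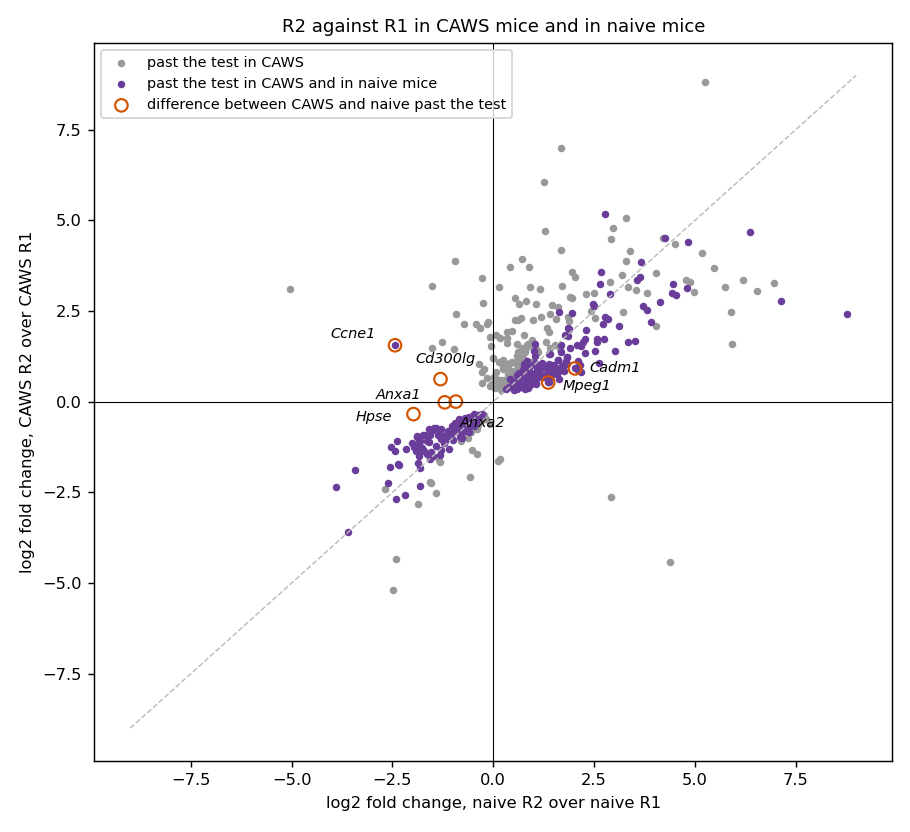
Log2 fold change of R2 over R1 in CAWS mice (vertical) against that in naive mice (horizontal) for the 501 genes that passed in CAWS mice and the 7 whose difference between treatments passed (orange rings), with the line of equal change dashed. Most points lie in the quadrants of equal sign (471 of 501), and Ccne1, Cd300lg, Anxa1, Anxa2 and Hpse sit left of the line while Cadm1 and Mpeg1 sit right of it.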

How the data were processed

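The deposited values are raw counts of reads per gene, made by the authors with featureCounts on mm10 per the submitters' processing notes. Which aligner, annotation, strand setting and featureCounts version they used is not given in the sources used here, so overlapping and near-identical genes are uncertain. RNA was taken from sorted cells with the RNeasy Plus Mini kit, and the TruSeq RNA kit was used for the libraries, as the labels' protocols state. Of 27179 gene IDs, 25275 matched a symbol in RefSeq GRCm38.p6, which also gave positions and promoter windows.

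Genes passing edgeR's filterByExpr (minimum count 10, total 15) were tested with edgeR 4.0.16 in R 4.3.3 (robust quasi-likelihood test, TMM scaling), with all 21 libraries and 7 group means in the fit, 14 residual degrees of freedom and Benjamini-Hochberg adjustment over 13275 genes at 0.05. Each standard error is the fold change divided by the square root of its F. The same fit gave naive R2 against naive R1 and the difference of the 2 contrasts. The scripts were tested on simulated counts. The p-values rest on the spread between libraries within a group, estimated over all 7 groups. The main fit had no term for the pool, so R2 and R1 libraries of the same pool were treated as independent. CPM uses TMM-scaled totals.

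Same-numbered R2 and R1 libraries come from 1 pool, per the series design. Their deviations from the group means correlated at 0.14, 0.091 and 0.12 in CAWS mice and at 0.059, 0.097 and 0.033 in naive mice. Alternatives were limma 3.58.1 (voom with sample weights), DESeq2 1.42.0, size-factor scaling, other filters, an older edgeR fit, the compared groups alone, the pool as a block and each library left out.

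Genes are named by a rule: sort and lineage anchors, the 15 largest changes in each direction past the test whose higher group averaged 4 or more in log2 CPM and whose libraries did not overlap, up to 5 members of each of 37 gene lists by p, the 6 largest differences between treatments in each direction, and members of counts of 5 or fewer. Other list members and other genes were chosen after their values were seen, and a few genes are not reported here. The members and the lists were chosen with earlier results of these data known. Lists share members, and their counts are descriptions without a set test.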

Additional observations from a re-analysis of the deposited data

Results flagged for a closer look

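For 7 genes the R2 to R1 difference was not the same in CAWS and in naive mice by the test of that difference (edgeR, adjusted p under 0.05), and the 6 covered by the rule for named genes have their values here. On the log2 scale the CAWS difference minus the naive one was 1.93 ± 0.32 for Cd300lg (edgeR adjusted p = 0.0188), 1.64 ± 0.29 for Hpse (edgeR adjusted p = 0.0259), 1.18 ± 0.17 for Anxa1 (edgeR adjusted p = 0.0058) and 0.93 ± 0.17 for Anxa2 (edgeR adjusted p = 0.0259). It was -1.11 ± 0.17 for Cadm1 (edgeR adjusted p = 0.00838) and -0.83 ± 0.15 for Mpeg1 (edgeR adjusted p = 0.0259). Cd300lg, a relative of Cd300e, was at 13.35 to 22.7 CPM in CAWS R2 and 9.75 to 12.6 CPM in CAWS R1, against 9.07 to 9.80 CPM in naive R2 and 16.7 to 30.7 CPM in naive R1. Anxa2, another annexin, had 266, 319 and 269 CPM in CAWS R2 and 258, 300 and 295 CPM in CAWS R1, against 101, 99.0 and 96.1 CPM in naive R2 and 180.0, 199 and 183 CPM in naive R1. Mpeg1 had 3581, 3916 and 4020 CPM in CAWS R2 and 2563, 2927 and 2484 CPM in CAWS R1, against 4059, 3833 and 3399 CPM in naive R2 and 1577, 1590 and 1219 CPM in naive R1. Anxa1 passed in each alternative tried, Cadm1 in each but the one without CAWS R2 replicate 2 (edgeR adjusted p = 0.0546), and Cd300lg, Hpse, Mpeg1 and Anxa2 lost the call without 4, 6, 8 and 9 of the 12 libraries, Anxa2 also with a minimum count of 50 (edgeR adjusted p = 0.054).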

How the results depend on the processing

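The 501 genes between CAWS R2 and CAWS R1 became 623 with the pool as a replicate block, 782 with the 6 libraries fitted alone and 804 with limma voom, while DESeq2, other scaling, other filters and the older edgeR fit stayed within 1.5 times of 501. The lower calls, 174, became 105 in the older edgeR fit, 342 with the groups alone and 352 with voom. Leaving out 1 library gave 230 to 444 genes in all, 157 to 298 higher and 73 to 146 lower. The naive count of 946 became 1524 with the groups alone and 591 to 804 without 1 library. The 7 genes that differed between treatments became 14 with no filter, 12 in the older fit, 15 with the replicate block, 33 with the groups alone, 28 with voom, 57 with DESeq2 and 1 to 12 without 1 library. The cause of these shifts was not tested, beyond the smaller number of libraries when 1 is left out.

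Of 191 named genes, 103 passed and 52 of these passed in every alternative, 46 lost the call without at least 1 library and 0 changed sign. The replicate block ended 0 calls and added 20. Of 88 that did not pass, 40 passed in at least 1 alternative. Estimates near 0 changed sign for 4 of them, without 1 library from -0.033 to 0.0819 for Adgre1, -0.4635 to 0.153 for Siglech, -0.124 to 0.0484 for Anxa1 and -0.0857 to 0.0494 for Anxa2, the last also at -0.0125 with voom. Genes under about 1 CPM rest on few counts, and 3 libraries a group limit every call.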

Other observations

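Genes outside the rule for named genes, chosen after their values were seen and each without overlap between the groups, are given as values. They were not recomputed under the alternatives. Srebf2, the transcription factor that drives sterol synthesis, had 251, 284 and 245 CPM in CAWS R2 and 178, 181 and 186 CPM in CAWS R1 (log2 0.52 ± 0.12, edgeR adjusted p = 0.0157). Tlr12, a receptor for protozoan profilin, had 18.1, 27.4 and 28.9 CPM in CAWS R2 and 3.94, 6.73 and 4.21 CPM in CAWS R1 (log2 2.33 ± 0.26, edgeR adjusted p = 4.75e-06). Lag3, a receptor for MHC class II better known from T cells, had 27.1, 41.0 and 35.8 CPM in CAWS R2 and 14.3, 9.69 and 11.01 CPM in CAWS R1 (log2 1.57 ± 0.21, edgeR adjusted p = 4.47e-05). Dnase1l3, a DNase secreted by dendritic cells and macrophages, had 49.7, 60.2 and 63.2 CPM in CAWS R2 and 20.03, 14.1 and 13.96 CPM in CAWS R1 (log2 1.85 ± 0.22, edgeR adjusted p = 1.52e-05). P2ry12 and Tmem119, markers of microglia in the brain, ran in opposite directions. P2ry12 had 149, 145 and 152 CPM in CAWS R2 and 230.2, 222 and 214 CPM in CAWS R1, and Tmem119 had 117, 129 and 142 CPM in CAWS R2 and 51.7, 69.5 and 71.6 CPM in CAWS R1. S1pr5, a sphingosine phosphate receptor of nonclassical monocytes and natural killer cells, had 0.397, 1.68 and 1.62 CPM in CAWS R2 and 7.47, 32.6 and 6.75 CPM in CAWS R1, again with CAWS R1 replicate 2 the highest.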
